A study of Danio rerio with 4 samples.

Results

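Genes for translation initiation and elongation factors, the proteins that load ribosomes onto messenger RNA and move them along it, were followed in hepatocyte libraries of zebrafish larvae. The genes were chosen by the wording of their deposited descriptions, which had to begin with a eukaryotic initiation factor, elongation factor 1, elongation factor 2 or the initiation factor eIF-2B. This wording took in 76 genes, of which 72 averaged 1 RPKM or more over the 4 libraries, out of 11135 genes at that level. RPKM is a read count divided by gene length and library depth. The rule used no difference between genotypes or stages. A low gene can still reach the mean through 1 library or 1 genotype alone, which then also sets its direction in the counts below. This held for EIF4G3 (ENSDARG00000077215), eif2ak1, EIF4E3 and ENSDARG00000077010 through a mutant library, and for EEF2 and eif4ba through the mutant libraries. It held for EIF2D, EIF3E and EIF4E2, for example, through a wild-type library. The 4 genes left out were eef1a1l3, eef2a.2, eif4enif1 (mean RPKM 0.425) and 1 of the EIF4G3 genes (ENSDARG00000074331, mean RPKM 0.351), and the genes just inside the limit were eef2a.1 (mean RPKM 1.05) and ENSDARG00000077010 (mean RPKM 1.12).

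The libraries came from wild-type and zc3h8-/- larvae of the ABGO strain at 5.5 and 7.5 days post fertilization (dpf), 1 library for each genotype and stage. Larvae of every group carried the transgene Tg(lfabp:Dendra2-NTR), in which the promoter of a liver fatty acid binding protein gene drives a fluorescent protein fused to nitroreductase in hepatocytes, and fluorescent cells of dissected, trypsin-treated livers were collected on a flow sorter. How many livers went into a library is not stated. Sorted cells were converted to Smart-seq2 libraries, which hold cDNA amplified by PCR. The study asked how gene expression in these cells differs between mutant and control at the 2 stages.

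Initiation begins when eIF2, bound to GTP, brings the initiator transfer RNA to the small ribosomal subunit, where eIF1, eIF1A, eIF3 and eIF5 assemble. The cap-binding protein eIF4E, the scaffold eIF4G and the helicase eIF4A then bring messenger RNA to that subunit, 4E-binding proteins hold eIF4E away from eIF4G, and eIF2B recharges eIF2 with GTP. Elongation factor 1-alpha delivers transfer RNA to the ribosome and elongation factor 2 moves the ribosome by a codon, in yeast and mammals as in fish. The liver makes most plasma proteins, so that its cells carry a large translation apparatus.

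With 1 library per group there was no replicate spread, so no difference within a stage has a test. Intervals cover counting error only and treat each read as independent. PCR reads without molecular identifiers are not independent molecules, so the intervals can be too narrow even for that error. The bounds given against 0 reads rest on the same assumption, so they hold for counted reads and not for levels in the cells. Reads counted to genes numbered 29648253 to 36999723 per library. No gene ID carried the symbol zc3h8, so the mutation was not checked against its own transcript. All 10 hepatocyte markers found were above 0 in every library, and their summed RPKM came to 12.3 and 5.88% of the library total in the wild-type and mutant libraries of 5.5 dpf and to 11.3 and 2.96% at 7.5 dpf. Summed RPKM of 8 leukocyte genes, which include CORO1A, LCP1, marco and NCF1, was 16.7 and 5.05 at 5.5 dpf and 3.35 and 266 at 7.5 dpf, with ptprc and cd74a at 0 in each. Another of them, lyz, stood at 9.55 RPKM in wild type at 5.5 dpf and at 0 in every other library. Exocrine pancreas genes summed to 462 and 46.1 RPKM at 5.5 dpf and to 1916 and 507 RPKM at 7.5 dpf. Genes of biliary, stellate and mesenchymal cells summed to 3992 and 7657 RPKM and then to 7075 and 6628 RPKM. In that sum krt4 stood at 3196 and 6268 RPKM and then at 5829 and 3303 RPKM. Its other genes, apart from the VIM gene ENSDARG00000010008, were highest in the mutant at 7.5 dpf, such as TAGLN (ENSDARG00000033466) at 249 RPKM. Genes of skin, muscle and lens summed to 1699.7 and 2727 RPKM and then to 3042 and 4299 RPKM. The part of these shifts in the values below was not tested, and in bulk libraries fewer cells of a type cannot be told apart from less RNA per cell.

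**Figure D1:**
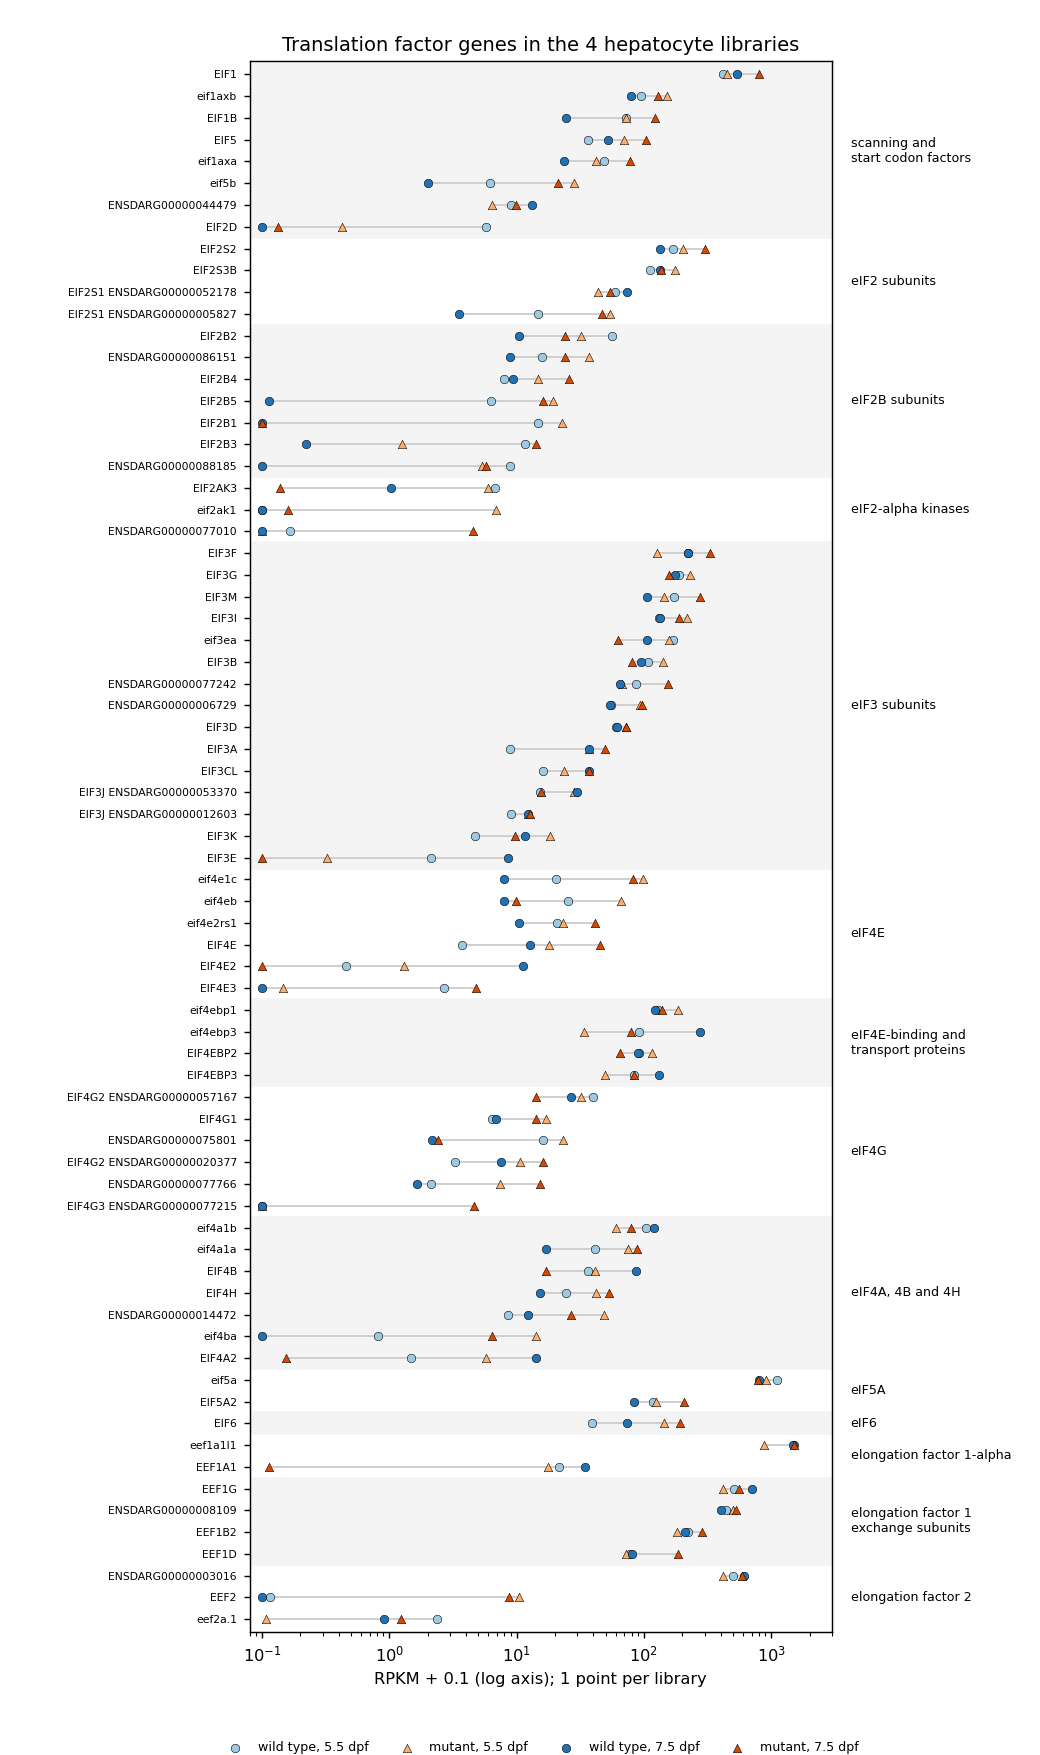
RPKM + 0.1 on a log axis of the 72 translation factor genes, grouped by role, with 1 point for each of the 4 libraries (circles for wild type, triangles for mutant). Genes at the right of the plot, such as eef1a1l1 at 875 to 1522 RPKM, have points close together, and low genes such as EIF2B3 are spread out.

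The translation factor genes were abundant in all 4 libraries. Their RPKM summed to 7699 and 7421 in the wild-type and mutant libraries of 5.5 dpf and to 7715 and 9219 at 7.5 dpf, which was 1.12, 1.07, 1.15 and 1.36% of the RPKM of all genes. In the same order the median member stood at 24.8, 41.5, 23.9 and 46.1 RPKM, where the median tested gene stood at 4.56, 5.66, 3.86 and 7.84. An average of 100 RPKM or more was reached by 21 of 72 members (29.2%) and by 6.73% of all tested genes. The highest library lay within 2-fold of the lowest for 20 of 72 members (27.8%), against 4.57% of all tested genes. Among genes that averaged 100 RPKM or more the same held for 13 of 21 members (61.9%) and for 26.0% of all genes.

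Of the 5 most abundant members 4 act in elongation. The gene eef1a1l1, for elongation factor 1-alpha, had the highest mean, 1341 RPKM, followed by eif5a at 900.3, EEF1G at 550.01, EIF1 at 550.01 and the elongation factor 2 gene ENSDARG00000003016 at 530.4. At the lower end, 10 of 72 members (13.9%) had 3 reads or fewer in the wild-type library at 7.5 dpf, against 3 members in either library at 5.5 dpf and 5 in the mutant library at 7.5 dpf. That wild-type library also had 3 reads or fewer for 34.2% of all tested genes, against 18.6, 26.2 and 23.6% in wild type at 5.5 dpf and in the mutant at 5.5 and 7.5 dpf. The part of this gap in the differences at 7.5 dpf was not tested.

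At 5.5 dpf, 18 of 72 members (25.0%) were at least 2-fold higher in the mutant library on the scale of log2(RPKM + 1), which understates differences of low genes, and 28.0% of all tested genes were. At least 2-fold lower were 6 members (8.33%), against 25.6% of all tested genes. The median difference of the members was 0.27 and that of all tested genes 0.00. At 7.5 dpf, 29 members (40.3%) were 2-fold higher and 6 (8.33%) were 2-fold lower, against 40.0 and 23.1% of all tested genes. The medians were 0.47 for members and 0.33 for all tested genes. The shares of higher members were thus near those of all genes at both stages, and the shares of lower members were below them.

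Abundance bears on these shares. Of the 21 members with a mean RPKM of at least 100, 1 was 2-fold higher and 1 was 2-fold lower at 5.5 dpf, against 21.5 and 10.9% of all genes at that level. At 7.5 dpf, 5 of these 21 were higher and 1 was lower, against 24.8 and 22.3% of such genes. Of the other 51 members, 17 were higher and 5 lower at 5.5 dpf (28.5 and 26.6% of all genes with a mean RPKM between 1 and 100), and 24 were higher and 5 lower at 7.5 dpf (41.1 and 23.1%). The split also depended on library scaling. Median-ratio scaling over genes above 0 in all libraries moved the difference between genotypes by -0.31 at 5.5 dpf and by -0.41 at 7.5 dpf, so that smaller positive differences lay below 0 under it. It gave 17 members higher and 11 lower at 5.5 dpf, against 23.7 and 29.2% of all tested genes, and 18 higher and 11 lower at 7.5 dpf, against 35.6 and 26.1%.

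**Figure D2:**
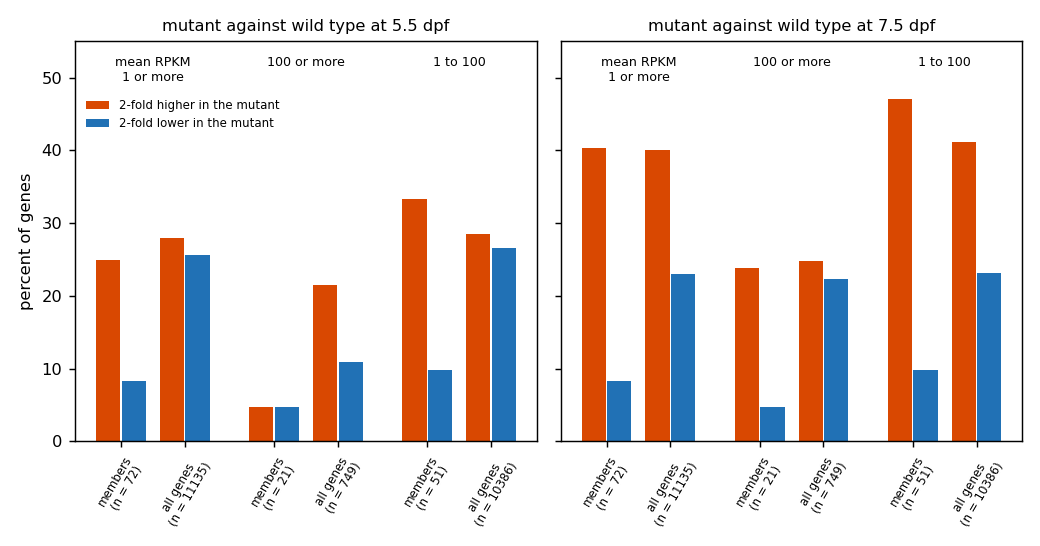
Percent of genes 2-fold higher (orange) and 2-fold lower (blue) in the mutant library at 5.5 dpf (left) and 7.5 dpf (right), for translation factor genes (members) and for all tested genes, in full and by mean RPKM. The bars for lower members stay at 4.76 to 9.80%, below the bars for lower genes in each class.

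The genotype comparisons at the 2 stages share no library. At both stages 12 members (16.7%) were 2-fold higher in the mutant, against 12.1% of all tested genes, and 2 members (2.78%), eif4ebp3 and EIF3E, were 2-fold lower, against 7.73%. The 12 were eif4e1c, EIF4E, EIF6, eif5b, eif4ba, EEF2, EIF2B5, the EIF2S1 gene ENSDARG00000005827, the EIF4G2 gene ENSDARG00000020377, the eIF4G1 gene ENSDARG00000077766, the eIF4A-III gene ENSDARG00000014472 and the eIF2B epsilon gene ENSDARG00000086151. Of these, EEF2 and eif4ba passed the limit on mean RPKM only through the mutant libraries, which set their direction. EIF3E passed it only through wild type at 7.5 dpf, which set its direction at that stage. Under median-ratio scaling 8 members were higher at both stages (8.89% of all tested genes), without EIF6, the EIF4G2, eIF4A-III and eIF2B epsilon genes, and 4 were lower (9.87%), eif4a1b and EIF4EBP3 being added. Opposite directions beyond 2-fold were seen in 3 members (4.17%), EIF2B3, EIF4E3 and EIF4A2, against 12.5% of all tested genes. Both mutant libraries lay above both wild-type libraries for 29 members (40.3%), against 22.8% of all tested genes, and below them for 5 (6.94%), against 13.0%. These last counts were taken without median-ratio scaling, under which smaller positive differences lay below 0. They were also not matched for abundance.

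**Figure D3:**
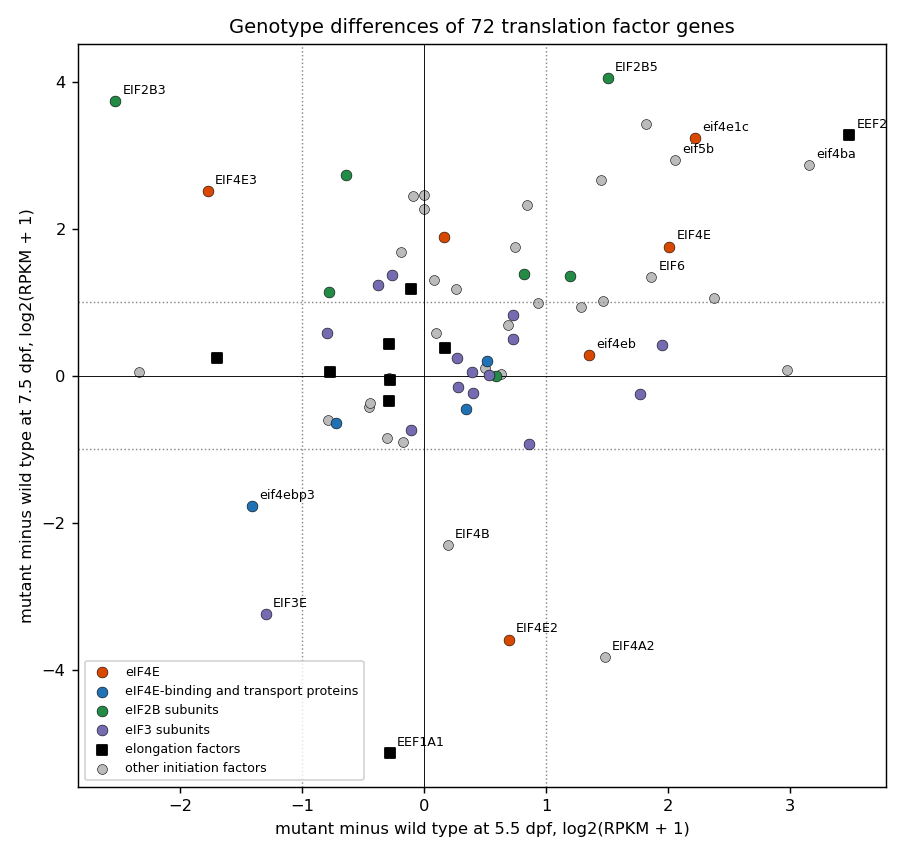
Difference between mutant and wild type in log2(RPKM + 1) at 5.5 dpf (horizontal) and at 7.5 dpf (vertical) for each of the 72 genes, coloured by role, with dotted lines at 2-fold. The 12 genes beyond 2-fold in the upper right include eif4e1c (2.22 and 3.24), and eif4ebp3 lies at the lower left (-1.41 and -1.78).

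Over both stages, limma on log2(RPKM + 1) with stage as a covariate called 0 of 11135 genes at an adjusted p of 0.05 (0% of all genes, Benjamini-Hochberg), and the lowest adjusted p of a member was 0.748. This fit has 1 residual degree of freedom, and limma draws each gene's spread toward that of all genes. The spread here is how far the genotype difference changes between stages, not a spread of replicates. At an unadjusted p under 0.05 stood 364 higher (3.27%) and 242 lower genes (2.17%), with 2 members higher and 0 lower. The 2 were EEF2, with a log2 difference of 3.38 (SE 1.18), and eif4ba, with 3.01 (SE 1.18), each higher in the mutant at both stages. Both passed the limit on mean RPKM only through the mutant libraries, so that limit set their direction. The gene eif1axb, for example, also had an SE of 1.18, so this SE is not particular to the 2 genes. The adjusted p of EEF2 and of eif4ba from limma was 0.748. The quasi-likelihood test of edgeR on recovered reads also called 0 genes, with 113 higher (1.01%) and 229 lower genes (2.06%) at an unadjusted p under 0.05, among them eif4e1c (higher) and eif4ebp3 (lower). With a pseudocount of 5 in place of 1 limma called 107 genes (0.961%), among them 0 members. No member therefore passed a test of genotype, and the values below are differences between single libraries.

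Of the 6 genes for cap-binding proteins of the eIF4E family, 3 were 2-fold higher and 1 was lower in the mutant at 5.5 dpf (28.0 and 25.6% of all tested genes), and 4 were higher and 1 lower at 7.5 dpf (40.0 and 23.1%). Of the 4 genes for their inhibitors, the 4E-binding proteins, 0 were higher and 1 was lower at each stage. Under median-ratio scaling 2 were lower at each stage, against 29.2 and 26.1% of all tested genes at 5.5 and 7.5 dpf. The gene eif4e1c, for a cap-binding eIF4E, stood at 20.3 and 97.8 RPKM in the wild-type and mutant libraries of 5.5 dpf and 7.87 and 82.6 RPKM at 7.5 dpf. It was 4.83-fold higher (95% counting interval 4.56 to 5.11) in the mutant at 5.5 dpf and 10.5-fold higher (9.62 to 11.5) at 7.5 dpf. Both mutant libraries were above both wild-type libraries. The gene named EIF4E, of the same family, stood at 3.66 and 17.7 RPKM in the wild-type and mutant libraries of 5.5 dpf and 12.7 and 45.4 RPKM at 7.5 dpf, and was 4.85-fold higher (4.14 to 5.71) and 3.57-fold higher (3.26 to 3.90) in the mutant at the 2 stages. Here too both mutant libraries were the higher ones. The remaining gene, eif4eb, stood at 25.2 and 65.7 RPKM in the wild-type and mutant libraries of 5.5 dpf and 7.92 and 9.84 RPKM at 7.5 dpf, and was 2.61-fold higher (2.45 to 2.77) in the mutant at 5.5 dpf but 1.24-fold higher (1.09 to 1.42) at 7.5 dpf. Its mutant library at 5.5 dpf stood alone above the rest.

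Summed over these 3 genes, eIF4E level was 49.1 and 181 RPKM in wild type and mutant at 5.5 dpf and 28.5 and 138 RPKM at 7.5 dpf. The share of eif4e1c in that sum was 41.3 and 54.0% at 5.5 dpf and 27.6 and 59.9% at 7.5 dpf. The remaining members are relatives of eIF4E whose mammalian forms bind the cap with lower affinity. Of these eif4e2rs1, described as eIF4E type 2, stood at 20.5 and 23.1 RPKM at 5.5 dpf and 10.4 and 41.1 at 7.5 dpf, in wild type and mutant, and was 3.96-fold higher (3.52 to 4.47) in the mutant at the later stage. EIF4E2 was at 0.358 and 1.20 RPKM at 5.5 dpf and 11.1 and 0 at 7.5 dpf, and EIF4E3 at 2.58 and 0.0468 RPKM at 5.5 dpf and 0 and 4.70 at 7.5 dpf. EIF4E2 was at least 178-fold lower in the mutant at 7.5 dpf, a bound on counted reads, not on levels in the cells, that sets 0 reads at 3 reads. EIF4E3 was 55.2-fold lower (23.4 to 171) in the mutant at 5.5 dpf and at least 170.1-fold higher at 7.5 dpf, and its levels were under 5 RPKM in each library. EIF4E2 passed the limit on mean RPKM only through wild type at 7.5 dpf, and EIF4E3 only through the mutant at 7.5 dpf. Their directions at that stage were thus fixed by the limit.

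The 4E-binding proteins compete with eIF4G for eIF4E. The gene eif4ebp3 stood at 90.7 and 33.5 RPKM in the wild-type and mutant libraries of 5.5 dpf and 275 and 79.5 RPKM at 7.5 dpf, and was 2.71-fold lower (95% counting interval 2.57 to 2.86) in the mutant at 5.5 dpf and 3.46-fold lower (3.33 to 3.59) at 7.5 dpf. The wild-type library at 7.5 dpf was the highest and the mutant library at 5.5 dpf the lowest. The mutant library at 7.5 dpf was close to wild type at 5.5 dpf, with a log2 difference of -0.19 between them. A second copy, EIF4EBP3, stood at 82.7 and 49.8 RPKM in the wild-type and mutant libraries of 5.5 dpf and 131 and 83.8 RPKM at 7.5 dpf, and was 1.66-fold lower and 1.57-fold lower in the mutant, which passed 2-fold at both stages only under median-ratio scaling. The genes eif4ebp1, at 129 and 184 RPKM at 5.5 dpf and 121 and 139.7 at 7.5 dpf, and EIF4EBP2, at 90.6 and 115 RPKM at 5.5 dpf and 89.2 and 65.1 at 7.5 dpf, stayed within 2-fold in both genotype comparisons.

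The 4 genes for 4E-binding proteins summed to 393 and 383 RPKM in the wild-type and mutant libraries of 5.5 dpf and to 617 and 368 RPKM at 7.5 dpf. Set over the 3 summed eIF4E genes, this gave a ratio of 8.0 in wild type and 2.11 in the mutant at 5.5 dpf, and of 21.6 and 2.67 at 7.5 dpf. The ratio is taken within a library, so library scaling does not touch it. It was chosen after the values of its genes had been seen, and it describes 4 libraries with no replicate check.

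**Figure D4:**
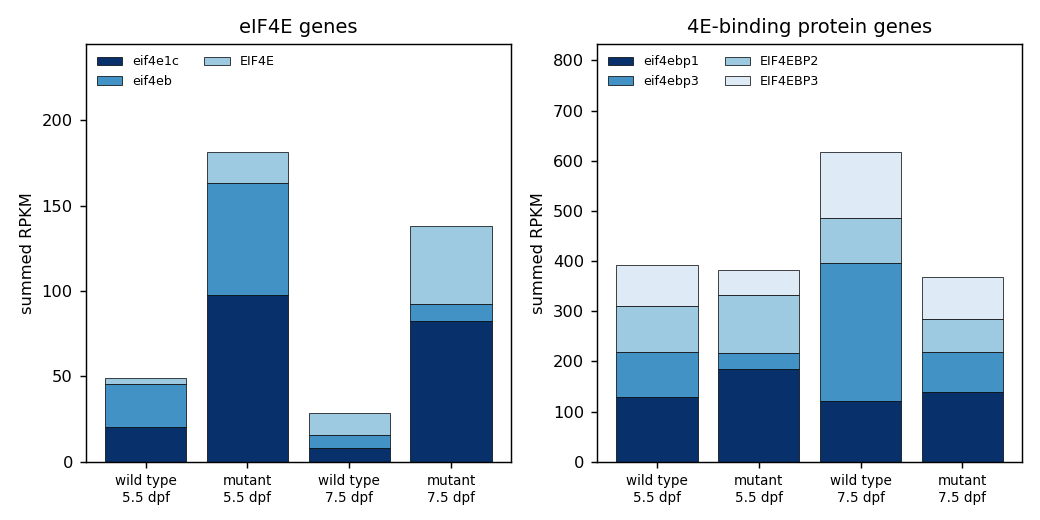
Summed RPKM of 3 eIF4E genes (left) and of 4 genes for 4E-binding proteins (right) in each of the 4 libraries, with 1 segment per gene. The eIF4E bars are at 181 and 138 RPKM in the mutant and at 49.1 and 28.5 in wild type, and the highest bar on the right is that of wild type at 7.5 dpf, 617 RPKM.

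The 6 members for eIF4G, the scaffold that joins eIF4E to eIF4A and eIF3, included 3 genes 2-fold higher at each stage and 0 lower. Of all tested genes 28.0 and 40.0% were higher at 5.5 and 7.5 dpf, and 25.6 and 23.1% were lower. EIF4G1 was counted at 5.5 dpf alone and EIF4G3 at 7.5 dpf alone. EIF4G3 passed the limit on mean RPKM only through the mutant library of 7.5 dpf, so its direction was fixed by that limit. Under median-ratio scaling 2 were higher and 1 was lower at 7.5 dpf (35.6 and 26.1% of all tested genes). EIF4G1 stood at 6.31 and 16.8 RPKM in the wild-type and mutant libraries of 5.5 dpf and 6.80 and 14.0 RPKM at 7.5 dpf, and was 2.67-fold higher (2.51 to 2.84) and 2.05-fold higher (1.93 to 2.19) in the mutant. With the pseudocount of 1 its difference at 7.5 dpf, 0.94, fell just short of 2-fold. A second eIF4G1 gene, ENSDARG00000077766, stood at 2.02 and 7.25 RPKM at 5.5 dpf and 1.55 and 15.2 at 7.5 dpf, and was 3.59-fold higher and 9.80-fold higher. Both mutant libraries were above both wild-type libraries for these genes. The last, ENSDARG00000075801, differed by stage, at 16.0 and 23.0 RPKM at 5.5 dpf and 2.06 and 2.30 at 7.5 dpf, with both libraries at 5.5 dpf above both at 7.5 dpf. The sum of the 3 copies was 24.3 and 47.1 RPKM at 5.5 dpf and 10.4 and 31.5 RPKM at 7.5 dpf.

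EIF4G2, whose mammalian form lacks the eIF4E-binding region, has 2 copies, ENSDARG00000057167 at 39.6 and 31.9 RPKM at 5.5 dpf and 26.5 and 14.2 at 7.5 dpf and ENSDARG00000020377 at 3.18 and 10.5 RPKM at 5.5 dpf and 7.49 and 16.1 at 7.5 dpf, in wild type and mutant. Their sum was 42.8 and 42.4 RPKM at 5.5 dpf and 34.0 and 30.4 RPKM at 7.5 dpf, and the second copy made up 7.43 and 24.8% of it at 5.5 dpf and 22.1 and 53.2% at 7.5 dpf. The sum was thus close between genotypes while the share of the second copy was higher in the mutant at both stages. EIF4G3 (ENSDARG00000077215) had 0 reads in 3 libraries and stood at 4.51 RPKM in the mutant at 7.5 dpf.

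The helicase eIF4A unwinds the leader of messenger RNA, and eIF4B and eIF4H stimulate it. Its 2 main copies had opposite differences. The gene eif4a1b stood at 105 and 60.2 RPKM in the wild-type and mutant libraries of 5.5 dpf and 120.0 and 78.6 RPKM at 7.5 dpf, and was 1.74-fold lower (1.68 to 1.80) and 1.53-fold lower (1.48 to 1.58) in the mutant. The gene eif4a1a stood at 41.5 and 75.1 RPKM in the wild-type and mutant libraries of 5.5 dpf and 16.8 and 87.9 RPKM at 7.5 dpf, and was 1.81-fold higher (1.76 to 1.86) and 5.24-fold higher (5.05 to 5.43). Both wild-type libraries were above both mutant libraries for eif4a1b and below them for eif4a1a. Together with EIF4A2, at 1.38 and 5.64 RPKM at 5.5 dpf and 14.0 and 0.0550 at 7.5 dpf, the copies summed to 147 and 141 RPKM at 5.5 dpf and to 151 and 167 RPKM at 7.5 dpf, so that their sum varied less than either main copy. The share of eif4a1b was 70.9 and 42.7% at 5.5 dpf and 79.6 and 47.2% at 7.5 dpf. Copies of a gene resemble each other in sequence, and reads that fit several copies could have been split or lost in the authors' counting, so the division between copies is less certain than the sum.

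The gene ENSDARG00000014472, described as eIF4A-III, a helicase of the exon junction complex, stood at 8.52 and 48.4 RPKM in the wild-type and mutant libraries of 5.5 dpf and 12.3 and 26.5 RPKM at 7.5 dpf, and was 5.68-fold higher (5.20 to 6.20) and 2.16-fold higher (1.99 to 2.35) in the mutant. At 7.5 dpf it fell under 2-fold with median-ratio scaling. EIF4H stood at 24.4 and 41.6 RPKM at 5.5 dpf and 15.0 and 52.9 at 7.5 dpf, and was 1.71-fold higher and 3.52-fold higher. The 2 genes for eIF4B went opposite ways at 7.5 dpf. EIF4B stood at 36.1 and 41.5 RPKM in the wild-type and mutant libraries of 5.5 dpf and 87.1 and 16.9 RPKM at 7.5 dpf, 5.16-fold lower (4.86 to 5.48) in the mutant at the later stage, where its wild-type library was the highest of the 4. The copy eif4ba stood at 0.710 and 14.2 RPKM in the wild-type and mutant libraries of 5.5 dpf and 0 and 6.30 RPKM at 7.5 dpf, 20.0-fold higher (15.7 to 25.9) at 5.5 dpf and at least 210.1-fold higher at 7.5 dpf. Their sum was 36.8 and 55.7 RPKM at 5.5 dpf and 87.1 and 23.2 RPKM at 7.5 dpf.

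Of the 4 genes for eIF2 subunits, which carry the initiator transfer RNA, 1 was 2-fold higher and 0 lower in the mutant at 5.5 dpf. At 7.5 dpf 2 were higher and 0 lower. Of all tested genes 28.0% were higher and 25.6% lower at 5.5 dpf, and 40.0 and 23.1% at 7.5 dpf. Under median-ratio scaling 1 of the 4 was higher and 0 lower at each stage. That scaling put 23.7% of all tested genes higher and 29.2% lower at 5.5 dpf, and 35.6 and 26.1% at 7.5 dpf. EIF2S2, for the beta subunit, stood at 168 and 203 RPKM in the wild-type and mutant libraries of 5.5 dpf and 134 and 304 RPKM at 7.5 dpf, and was 2.27-fold higher (2.2 to 2.34) in the mutant at 7.5 dpf, which fell under 2-fold with median-ratio scaling. EIF2S3B, for the gamma subunit, stood at 112 and 174 RPKM in the wild-type and mutant libraries of 5.5 dpf and 134 and 136 RPKM at 7.5 dpf, within 2-fold at each stage. The alpha subunit, whose phosphorylation slows initiation, had 2 copies named EIF2S1. The copy ENSDARG00000005827 stood at 14.6 and 53.9 RPKM in the wild-type and mutant libraries of 5.5 dpf and 3.42 and 46.8 RPKM at 7.5 dpf, and was 3.70-fold higher (95% counting interval 3.42 to 4.01) and 13.7-fold higher (11.8 to 15.9) in the mutant. Both mutant libraries were above both wild-type libraries. The copy ENSDARG00000052178 stood at 59.6 and 43.3 RPKM in the wild-type and mutant libraries of 5.5 dpf and 73.4 and 54.4 RPKM at 7.5 dpf, the reverse order and within 2-fold. The first copy made up 19.6 and 55.5% of their sum at 5.5 dpf and 4.46 and 46.2% at 7.5 dpf, and the sum was 74.2 and 97.2 RPKM and then 76.8 and 101 RPKM.

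The exchange factor eIF2B, which returns eIF2 to its GTP form, was represented by 7 genes. Their sum was 120.2 and 132 RPKM in the wild-type and mutant libraries of 5.5 dpf and 28.4 and 109 RPKM at 7.5 dpf, where the wild-type library was the low one. At 5.5 dpf 2 were 2-fold higher and 1 was lower in the mutant (28.0 and 25.6% of all tested genes), and at 7.5 dpf 6 were higher and 0 lower (40.0 and 23.1%). Under median-ratio scaling 1 was higher and 2 were lower at 5.5 dpf, and 3 were higher and 0 lower at 7.5 dpf, EIF2B2, EIF2B4 and ENSDARG00000086151 falling under 2-fold. That scaling put 23.7% of all tested genes higher and 29.2% lower at 5.5 dpf, and 35.6 and 26.1% at 7.5 dpf. In wild type 5 of the 7 were 2-fold lower at 7.5 than at 5.5 dpf (30.1% of all tested genes), and both comparisons use the wild-type library of 7.5 dpf. Set against wild type at 5.5 dpf instead, the mutant library of 7.5 dpf had 2 of the 7 higher and 2 lower. Of all tested genes 38.6% were higher and 26.9% lower against that library. Over all 72 members the same change of reference gave 21 higher (29.2%) and 12 lower (16.7%), shares below those of all tested genes. It took EIF2S2 (0.85), EIF1B (0.74) and EIF5A2 (0.82) below 2-fold on the log2 scale. This reference was chosen after the data had been seen.

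Among the eIF2B genes, EIF2B5, for the catalytic epsilon subunit, stood at 6.15 and 19.3 RPKM in the wild-type and mutant libraries of 5.5 dpf and 0.0146 and 15.9 RPKM at 7.5 dpf. It was 3.14-fold higher (2.81 to 3.52) in the mutant at 5.5 dpf, and 1089-fold higher (195 to 43080.3) at 7.5 dpf, where wild type had 1 read. A second epsilon gene, ENSDARG00000086151, stood at 15.7 and 37.3 RPKM at 5.5 dpf and 8.78 and 24.1 at 7.5 dpf, and was 2.37-fold higher (1.93 to 2.92) and 2.74-fold higher (2.08 to 3.63), values that fell under 2-fold with median-ratio scaling. Both mutant libraries were above both wild-type libraries for the epsilon genes and for EIF2B4, the delta gene, at 7.81 and 14.6 RPKM at 5.5 dpf and 9.20 and 25.6 at 7.5 dpf. EIF2B2, the beta gene, was highest in wild type at 5.5 dpf, at 55.6 and 31.9 RPKM at 5.5 dpf and 10.3 and 24.0 at 7.5 dpf, and EIF2B3, the gamma gene, went from 11.5 to 1.2 RPKM at 5.5 dpf and from 0.122 to 14.0 RPKM at 7.5 dpf between wild type and mutant. The alpha subunit had 2 copies, EIF2B1 at 14.6 and 22.5 RPKM at 5.5 dpf and 0 and 0 at 7.5 dpf and ENSDARG00000088185 at 8.76 and 5.24 RPKM at 5.5 dpf and 0 and 5.66 at 7.5 dpf, so that wild type at 7.5 dpf had 0 reads for either.

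**Figure D5:**
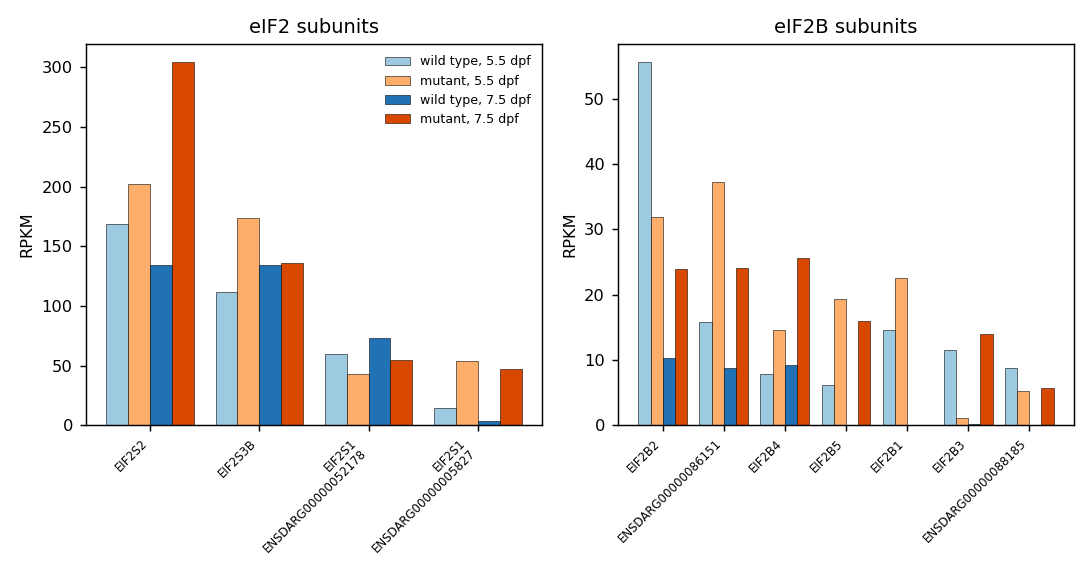
RPKM of the 4 genes for eIF2 subunits (left) and the 7 genes for eIF2B subunits (right), with 1 bar per library (blue for wild type, orange for mutant, darker at 7.5 dpf). For eIF2B the dark blue bars of wild type at 7.5 dpf are at 10.3 RPKM or less for every gene.

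The kinases that phosphorylate eIF2-alpha under stress were low. EIF2AK3, activated by unfolded protein in the endoplasmic reticulum, stood at 6.70 and 5.83 RPKM in the wild-type and mutant libraries of 5.5 dpf and 0.939 and 0.0383 RPKM at 7.5 dpf, higher in both libraries of 5.5 dpf than in both of 7.5 dpf. The heme-regulated kinase gene eif2ak1 had 0 reads in both wild-type libraries and stood at 6.84 and 0.0609 RPKM in the mutant at 5.5 and 7.5 dpf. ENSDARG00000077010, described as kinase 4, which senses uncharged transfer RNA, stood at 0.0670 and 0 RPKM at 5.5 dpf and 0 and 4.43 at 7.5 dpf. None of the 3 exceeded 7 RPKM in any library.

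The 15 genes for eIF3, the largest initiation factor and a bridge between the small subunit and messenger RNA, summed to 1244 and 1363 RPKM in the wild-type and mutant libraries of 5.5 dpf and to 1149 and 1540 RPKM at 7.5 dpf. At each stage 2 were 2-fold higher and 1 was 2-fold lower, with medians of 0.39 and 0.05, against 28.0 and 25.6% of all tested genes at 5.5 dpf and 40.0 and 23.1% at 7.5 dpf. Under median-ratio scaling 2 were higher and 2 lower at 5.5 dpf, and 0 were higher and 3 lower at 7.5 dpf, the lower ones being EIF3E, eif3ea and the EIF3J gene ENSDARG00000053370. That scaling put 23.7% of all tested genes higher and 29.2% lower at 5.5 dpf, and 35.6 and 26.1% at 7.5 dpf. EIF3A, for the largest subunit, stood at 8.84 and 37.0 RPKM in the wild-type and mutant libraries of 5.5 dpf and 36.7 and 49.2 RPKM at 7.5 dpf, with the wild-type library at 5.5 dpf alone being low (4.18-fold higher (3.95 to 4.43) in the mutant). EIF3K stood at 4.62 and 18.1 RPKM at 5.5 dpf and 11.5 and 9.56 at 7.5 dpf, with the same library lowest. At 7.5 dpf the higher genes were EIF3M, at 172 and 142 RPKM at 5.5 dpf and 105 and 274 at 7.5 dpf, and ENSDARG00000077242, for subunit H, at 86.9 and 66.7 RPKM at 5.5 dpf and 64.7 and 154 at 7.5 dpf. In both the mutant library at 7.5 dpf was the highest.

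The lower gene at both stages was EIF3E, at 2.02 and 0.227 RPKM in the wild-type and mutant libraries of 5.5 dpf and 8.51 and 0 RPKM at 7.5 dpf. It passed the limit on mean RPKM only through wild type at 7.5 dpf, so its direction at that stage was fixed by the limit. Its copy eif3ea, at 168 and 156 RPKM at 5.5 dpf and 105 and 62.4 at 7.5 dpf, made up 92.5 to 100% of the 2, so that the summed level of subunit E followed eif3ea. EIF3F, the most abundant eIF3 gene, stood at 219.9 and 126 RPKM in the wild-type and mutant libraries of 5.5 dpf and 219.9 and 331 RPKM at 7.5 dpf, which was 1.74-fold lower and 1.5-fold higher in the mutant. The remaining subunits stayed within 2-fold between genotypes at both stages, among them EIF3G at 188 and 228 RPKM at 5.5 dpf and 175 and 157 at 7.5 dpf, EIF3I at 131 and 217 RPKM at 5.5 dpf and 133 and 188 at 7.5 dpf, EIF3B at 108 and 142 RPKM at 5.5 dpf and 95 and 80.6 at 7.5 dpf and EIF3D at 60.2 and 72.7 RPKM at 5.5 dpf and 61.0 and 72.6 at 7.5 dpf. EIF3D, whose highest library was 1.21-fold the lowest, had the smallest spread of the 4 libraries among these.

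Of the 8 factors of scanning and start codon choice, 3 were 2-fold higher and 0 lower in the mutant at 7.5 dpf (40.0 and 23.1% of all tested genes), and 1 was higher and 1 lower at 5.5 dpf (28.0 and 25.6%). EIF1, which keeps the scanning ribosome from starting at wrong codons, stood at 417 and 447 RPKM in the wild-type and mutant libraries of 5.5 dpf and 533 and 803 RPKM at 7.5 dpf. Its relative EIF1B stood at 72.3 and 72.1 RPKM at 5.5 dpf and 24.3 and 121 at 7.5 dpf, 4.99-fold higher (4.61 to 5.39) in the mutant at 7.5 dpf, with wild type at 7.5 dpf the lowest library. The eIF1A copies eif1axb and eif1axa stood at 94.5 and 153 RPKM at 5.5 dpf and 79.3 and 128 at 7.5 dpf and at 48.1 and 42.1 RPKM at 5.5 dpf and 23.6 and 77.8 at 7.5 dpf. EIF5, which triggers GTP hydrolysis by eIF2 at the start codon, stood at 36.2 and 70.1 RPKM at 5.5 dpf and 52.0 and 104 at 7.5 dpf, 1.94-fold higher and 2.01-fold higher in the mutant on the RPKM scale and just under 2-fold with the pseudocount.

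The gene eif5b, whose protein joins the large subunit to the small one, stood at 6.03 and 28.3 RPKM in the wild-type and mutant libraries of 5.5 dpf and 1.90 and 21.1 RPKM at 7.5 dpf. It was 4.69-fold higher (95% counting interval 4.38 to 5.03) in the mutant at 5.5 dpf and 11.1-fold higher (9.93 to 12.6) at 7.5 dpf, with both mutant libraries above both wild-type libraries. EIF6, which holds the large subunit apart until it is needed, stood at 38.9 and 144 RPKM in the wild-type and mutant libraries of 5.5 dpf and 74.1 and 190.3 RPKM at 7.5 dpf, 3.70-fold higher (3.53 to 3.88) and 2.57-fold higher (2.47 to 2.66) in the mutant. Both mutant libraries were again the higher ones, and the value at 7.5 dpf fell to 0.94 on the log2 scale under median-ratio scaling. EIF2D was at 5.69 and 0.322 RPKM at 5.5 dpf and 0 and 0.0329 at 7.5 dpf, and ENSDARG00000044479, described as eIF2A, at 8.86 and 6.26 RPKM at 5.5 dpf and 13.0 and 9.82 at 7.5 dpf.

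The 5 most abundant of the 9 elongation factor genes stayed within 2-fold between genotypes at both stages. The gene eef1a1l1 stood at 1499 and 875 RPKM in the wild-type and mutant libraries of 5.5 dpf and 1469 and 1522 RPKM at 7.5 dpf, so that the mutant library at 5.5 dpf was the low one (1.71-fold lower (95% counting interval 1.70 to 1.73)) and the others lay close together. Under median-ratio scaling this difference was -1.09 on the log2 scale, past 2-fold. A minor copy, EEF1A1, stood at 21.5 and 17.5 RPKM in the wild-type and mutant libraries of 5.5 dpf and 34.6 and 0.0134 RPKM at 7.5 dpf, with 1 read in the mutant at 7.5 dpf, and made up at most 2.30% of the elongation factor 1-alpha sum. The beta, delta and gamma subunits belong to the complex that returns elongation factor 1-alpha to its GTP form. Their genes summed to 1252 and 1170 RPKM at 5.5 dpf and to 1408 and 1560 RPKM at 7.5 dpf.

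Among these subunits EEF1G stood at 509 and 417 RPKM at 5.5 dpf and 712 and 562 at 7.5 dpf, EEF1B2 at 221 and 181 RPKM at 5.5 dpf and 212 and 286 at 7.5 dpf and the delta gene ENSDARG00000008109 at 444 and 501 RPKM at 5.5 dpf and 403 and 527 at 7.5 dpf. The second delta gene, EEF1D, stood at 77.1 and 71.6 RPKM at 5.5 dpf and 80.8 and 184 at 7.5 dpf, and was 2.28-fold higher (2.21 to 2.35) in the mutant at 7.5 dpf, under 2-fold with median-ratio scaling. Elongation factor 2 came almost wholly from ENSDARG00000003016, at 503 and 414 RPKM in the wild-type and mutant libraries of 5.5 dpf and 614 and 591 RPKM at 7.5 dpf, within 2-fold throughout. The minor copy EEF2 had 2 reads and 0 reads in wild type and stood at 10.4 and 8.68 RPKM in the mutant, 2.44 and 1.45% of the sum of elongation factor 2 genes. The copy eef2a.1 was at 2.28 and 0.00697 RPKM at 5.5 dpf and 0.802 and 1.13 at 7.5 dpf. The factor eIF5A, which carries the modified residue hypusine and helps ribosomes over stretches of proline, came mainly from eif5a, at 1103 and 902 RPKM in the wild-type and mutant libraries of 5.5 dpf and 805 and 791 RPKM at 7.5 dpf. Its copy EIF5A2 stood at 117 and 123 RPKM at 5.5 dpf and 83.2 and 207 at 7.5 dpf, 2.49-fold higher (2.43 to 2.55) in the mutant at 7.5 dpf, and under 2-fold there with median-ratio scaling.

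Between stages, counts beyond 2-fold were as follows. From 5.5 to 7.5 dpf in wild type, 10 members (13.9%) were 2-fold higher and 15 (20.8%) lower, against 21.4 and 30.1% of all tested genes, with medians of -0.05 and -0.01. The lower ones included the 5 eIF2B genes, eif4e1c (2.57-fold lower), eif4eb (3.18-fold lower), eif5b (3.18-fold lower) and EIF1B (2.98-fold lower), and the higher ones eif4ebp3 (3.03-fold higher), EIF3A (4.15-fold higher) and EIF4B (2.41-fold higher). In the mutant 10 members (13.9%) were higher and 12 (16.7%) lower, against 33.8 and 26.2% of all tested genes, with medians of 0.07 and 0.04. Higher were eif4ebp3 (2.38-fold higher), EIF3F (2.62-fold higher), EIF4E (2.56-fold higher) and EEF1D (2.57-fold higher), and lower were eif4eb (6.67-fold lower), eif3ea (2.50-fold lower), EIF4B (2.45-fold lower) and the eIF4G1 gene ENSDARG00000075801 (10-fold lower). The gene eif4ebp3 was thus higher at the later stage in both genotypes. These comparisons share their libraries with the genotype comparisons, so they are not separate evidence.

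Other genes of protein synthesis were counted by the same 2-fold rule, which 28.0% of all tested genes met as higher and 25.6% as lower at 5.5 dpf, and 40.0 and 23.1% at 7.5 dpf. Under median-ratio scaling 23.7% of all tested genes were higher and 29.2% lower at 5.5 dpf, and 35.6 and 26.1% at 7.5 dpf. Of 72 genes for cytosolic ribosomal proteins 9 were higher and 0 lower in the mutant at 5.5 dpf (median 0.35), and 4 were higher and 1 lower at 7.5 dpf (median 0.30). Their shares beyond 2-fold, 12.5% higher at 5.5 dpf and 5.56% at 7.5 dpf, were below those of all genes, and under median-ratio scaling 1 was higher at each stage, with medians of 0.03 and -0.11. Of 16 aminoacyl-tRNA synthetase genes, which charge transfer RNA, 7 were higher and 4 lower at 5.5 dpf (median 0.73), and 9 were higher and 2 lower at 7.5 dpf (median 1.61), with 12 of the 16 lower at 7.5 than at 5.5 dpf in wild type (30.1% of all tested genes). Under median-ratio scaling 4 and 8 were higher at the 2 stages. Of 37 proteasome genes, a set from protein breakdown with no role in translation, 15 were higher and 4 lower at 5.5 dpf and 28 were higher and 0 lower at 7.5 dpf (medians 0.90 and 1.28), or 40.5 and 75.7% higher, and 9 and 18 were higher under median-ratio scaling.

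Of 4 genes for termination and recycling 1 was higher and 1 lower at 5.5 dpf (28.0 and 25.6% of all tested genes). At 7.5 dpf 2 were higher and 0 lower (40.0 and 23.1%), and 1 was lower under median-ratio scaling (26.1%). ABCE1, which splits ribosomes after termination, stood at 32.6 and 96.2 RPKM in the wild-type and mutant libraries of 5.5 dpf and 19.3 and 56.6 RPKM at 7.5 dpf, 2.95-fold higher (2.83 to 3.08) and 2.94-fold higher (2.78 to 3.10) in the mutant, with both mutant libraries above both wild-type libraries. HBS1L, of ribosome rescue, stood at 7.29 and 14.1 RPKM at 5.5 dpf and 2.63 and 22.2 at 7.5 dpf, and its partner PELO at 10.6 and 11.3 RPKM at 5.5 dpf and 26.4 and 13.4 at 7.5 dpf, 1.97-fold lower in the mutant at the later stage. The release factor gene gspt1 stood at 4.45 and 0.212 RPKM at 5.5 dpf and 0.0993 and 0 at 7.5 dpf, 21.0-fold lower (13.6 to 34.3) in the mutant at 5.5 dpf. Of 10 genes for poly(A)-binding proteins and other regulators 1 was higher and 1 lower at 5.5 dpf (28.0 and 25.6% of all tested genes) and 2 were higher and 1 lower at 7.5 dpf (40.0 and 23.1%). Under median-ratio scaling 1 was higher and 3 were lower at 5.5 dpf (23.7 and 29.2% of all tested genes). The poly(A)-binding protein gene pabpc1a stood at 284 and 518 RPKM at 5.5 dpf and 381 and 379 at 7.5 dpf. Of 8 genes for mitochondrial translation factors, 2 were higher and 3 lower at 5.5 dpf (median -0.54) and 4 were higher and 2 lower at 7.5 dpf (median 1.01), or 25.0 and 37.5% and then 50.0 and 25.0%. Of all tested genes these shares were 28.0 and 25.6% and then 40.0 and 23.1%. Under median-ratio scaling 2 of the 8 were higher and 4 lower at 5.5 dpf (23.7 and 29.2% of all tested genes).

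Of 13 genes for the TOR pathway and kinases acting on translation, 3 were higher and 5 lower at 5.5 dpf (median -0.24), and 4 were higher and 5 lower at 7.5 dpf (median -0.05). Of all tested genes 28.0% were higher and 25.6% lower at 5.5 dpf, and 40.0 and 23.1% at 7.5 dpf. MTOR, for the kinase that phosphorylates 4E-binding proteins, stood at 4.25 and 0.142 RPKM in the wild-type and mutant libraries of 5.5 dpf and 5.09 and 1.11 RPKM at 7.5 dpf, 29.9-fold lower (22.2 to 41.2) and 4.59-fold lower (4.05 to 5.23) in the mutant. The S6 kinase gene rps6kb1a stood at 9.10 and 0 RPKM at 5.5 dpf and 5.59 and 0.524 at 7.5 dpf. EEF2K, whose protein inactivates elongation factor 2, stood at 22.7 and 19.1 RPKM at 5.5 dpf and 0.456 and 37.4 at 7.5 dpf, where wild type at 7.5 dpf was the low library. DDIT4, an inhibitor of TOR signalling, had 0 reads in wild type at 5.5 dpf and in the mutant at 7.5 dpf and stood at 66.6 RPKM in the mutant at 5.5 dpf. Other genes of the list differed in other ways. For rhebl1 the values were 15.4 and 33.1 RPKM at 5.5 dpf and 4.07 and 21.9 at 7.5 dpf. MLST8 stood at 3.74 and 5.21 RPKM and then at 0 and 4.34, and DEPTOR at 14.0 and 0.00849 and then at 4.39 and 2.58. The direction of the pathway as a whole was not tested.

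Of 14 targets of the integrated stress response, in which phosphorylated eIF2-alpha favours translation of atf4, 4 were higher and 3 lower at 5.5 dpf (median 0.13), and 4 were higher and 0 lower at 7.5 dpf (median 0.31). The higher share, 28.6% at each stage, was near the 28.0% of all tested genes at 5.5 dpf and below the 40.0% at 7.5 dpf. Under median-ratio scaling 3 were higher and 3 lower at 5.5 dpf (median -0.19). At 7.5 dpf it gave 3 higher and 1 lower (median 0.15). It put 23.7% of all tested genes higher and 29.2% lower at 5.5 dpf, and 35.6 and 26.1% at 7.5 dpf. The genes named next are those counted without that scaling. Higher at 5.5 dpf were TRIB3 (35.3 and 75.5 RPKM in wild type and mutant) and VLDLR (0.269 and 10.4). So were ppp1r15b (0.061 and 9.26) and sesn2 (0 and 6.33). Lower there were ASNS (3.34 and 0.499), cebpg (12.5 and 0.0671) and PHGDH (7.58 and 0). Higher at 7.5 dpf were cebpg (6.90 and 27.9), PSAT1 (0 and 28.0), VLDLR (0 and 19.0) and CEBPB. The targets at 100 RPKM or more in every library are given next. The transcription factor gene atf4b stood at 159 and 161 RPKM at 5.5 dpf and 156 and 146 at 7.5 dpf, ATF3 at 139.9 and 141 RPKM at 5.5 dpf and 167 and 172 at 7.5 dpf and DDIT3 at 134 and 115 RPKM at 5.5 dpf and 268 and 220.0 at 7.5 dpf. CHAC1, for a glutathione-degrading enzyme, was at 135 and 138 RPKM at 5.5 dpf and 441 and 276 at 7.5 dpf, and ppp1r15a, whose protein directs removal of phosphate from eIF2-alpha, at 422 and 494 RPKM at 5.5 dpf and 563 and 854 at 7.5 dpf. CEBPB, for another transcription factor, stood at 193 and 382 RPKM at 5.5 dpf and 272 and 574 at 7.5 dpf, 1.98-fold higher (1.93 to 2.03) and 2.11-fold higher (2.06 to 2.15) in the mutant, with both mutant libraries above both wild-type libraries. Its log2 difference at 7.5 dpf, 1.07, fell under 2-fold with median-ratio scaling, which moved differences at that stage by -0.41.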

How the data were processed

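Hepatocytes sorted from larvae of 2 genotypes at 2 stages were sequenced in 4 libraries, grouped by the titles and stages in the labels. Per the labels' protocols, Smart-seq2 libraries were built from Trizol extracts. DESeq 1.16.0, HTSeq 0.6.0, TopHat2 2.0.12 and Bowtie2 2.2.3 are named, with no roles, in the submitters' processing notes. Genome build, annotation and strand setting: not given in the sources used here.

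The authors deposited RPKM for 33737 genes. Per the file headers, 4 comparison tables hold normalized columns, a fold change (ratio), a log2 fold change and a p-value. The normalized values the authors deposited behaved as CPM, and 86618 of 86618 values above 0 (100%) came out as whole reads within 0.01 of a read. Of 44540 values of tested genes 1502 were filled from the RPKM. The authors' p-values were not used. Symbols matched 21939 of 33737 IDs (65.0%), and 61 of 72 members.

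Genes with a mean RPKM of at least 1 were compared by log2(RPKM + 1), with 2-fold as the limit. Ratios and their 95% counting intervals come from reads; a ratio against 0 reads is a bound against 3 reads per library, and where neither library exceeded 3 reads there is none. Roles were read from the deposited descriptions. Limma 3.58.1 and edgeR 4.0.16 (R 4.3.3) tested genotype over both stages. The members and gene lists were chosen with earlier results of these data known.

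Named by rule were the 10 most abundant members, the 4 highest and 4 lowest 2-fold differences per comparison with an RPKM of at least 10, the most abundant member of each role, their copies, and up to 4 genes each way that were 2-fold at both stages. Other members were named after their values had been seen, so that each role is described. Alternatives were other pseudocounts, filters, scalings and folds, the authors' log2 fold change, and another reference library.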

Additional observations from a re-analysis of the deposited data

Results flagged for a closer look

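Opposite differences beyond 2-fold at the 2 stages were found in 3 genes, and the difference between the stages was not tested. For EIF4E3 the mutant difference at 7.5 dpf minus that at 5.5 dpf was 4.29 on the log2 scale. For EIF2B3 it was 6.27, and for EIF4A2 it was -5.31. EIF4E3 and EIF2B3 were lower in the mutant at 5.5 dpf and higher at 7.5 dpf, and EIF4A2 was the reverse. Each of the 3 had an RPKM of 0.122 or less in at least 1 library, and 12.5% of all tested genes met the same rule.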

How the results depend on the processing

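No paired analysis was possible because each group has 1 library and the labels give no replicate numbers. The count of lower members at 5.5 dpf, 6, was 3 with a pseudocount of 5, 1 with a mean RPKM of at least 10, 11 under median-ratio scaling and 2 at 4-fold, and that of higher members, 18, was 7 at 4-fold. Under these settings, in that order, 13.0, 18.1, 29.2 and 15.0% of all genes were lower, and 14.1% were higher at 4-fold. At 7.5 dpf the 6 lower members became 3 with a mean RPKM of at least 10, 3 with more than 3 reads in both libraries, 11 under median-ratio scaling and 12 against wild type at 5.5 dpf. Of all genes 21.2, 21.4, 26.1 and 26.9% were lower under the same settings. The 29 higher members became 18 under median-ratio scaling and 14 at 4-fold, against 35.6 and 28.8% of all genes. Between stages in wild type, 10 higher and 15 lower became 6 and 9 with a mean RPKM of at least 10 and 2 and 7 at 4-fold. The shares of all genes were 19.5 and 24.7% with that mean and 10.9 and 18.3% at 4-fold. In the mutant, 10 higher became 6 with a pseudocount of 5, 5 with a mean RPKM of at least 10 and 4 at 4-fold, and 12 lower became 6 with that mean and 7 at 4-fold. Of all genes 25.6, 28.1 and 23.4% were higher and 23.8 and 17.7% lower in the same order. Role groups 2-fold higher by summed level, 2 at 5.5 dpf and 4 at 7.5 dpf, numbered 4 and 7 without each group's most abundant gene, with 2 lower at 7.5 dpf. Between stages in wild type 1 group was higher as a percent of genes outside the 10 most abundant. The genotype fit called 107 of all genes with a pseudocount of 5, and 0 members. The median member at 5.5 dpf turned to -0.018 under median-ratio scaling, and EIF2B2 (-1.18) and ENSDARG00000088185 (-0.55) turned at 7.5 dpf against wild type at 5.5 dpf. Of 1507 alternative values for single genes, 78 dropped below the limit of their setting, 2-fold or 4-fold. A further 26 passed it in their own direction, and EIF2B2 and ENSDARG00000088185 turned from beyond 2-fold. The other 1401 include values that went from under 2-fold to beyond it in another direction. Among them, at 7.5 dpf against wild type at 5.5 dpf, were eif4eb (0.28 to -1.27), ENSDARG00000075801 (0.11 to -2.36) and EIF2B1 (0 to -3.96). Of the 1401, 19 changed sign, each from under 2-fold, 13 of them under median-ratio scaling. The remaining 1382 did not go from one sign to the other. The cause was not tested. With 1 library per group, depth limits only low genes, and the spread between animals is unknown.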
